A study of Rattus norvegicus with 21 samples.

Results

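Cadmium and manganese were set against each other in an insulin-secreting cell line through the microRNAs that the cells held. The comparison takes 6 of the series' 21 libraries, 3 small RNA libraries of cells given 5 µM cadmium (Cd) and 3 of cells given 25 µM manganese (Mn), each for 24 h. The cells were INS-1 832/13, a rat insulinoma line derived from a beta cell tumour, which still releases insulin when glucose rises. Small RNA libraries of untreated cells (3) give the baseline beside each result, and 3 libraries of cells given 1 µM inorganic arsenic (iAs) entered only the filter on low rows and the estimate of the spread. Cells of all groups were plated 24 h before the exposure began. The doses of Cd and Mn differ, so metal and dose cannot be told apart. Whether the 3 libraries of a group are separate cultures is not given in the labels, and a p-value here measures library-to-library spread, which may be technical.

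MicroRNAs are RNAs of about 22 bases that guide Argonaute proteins to messenger RNAs, which are then translated less and decay faster. Each is cut from a hairpin precursor whose 5′ arm (5p) or 3′ arm (3p) can be loaded, and bases 2 to 8, the seed, do most of the target pairing. MicroRNAs with 1 seed share many predicted targets. In beta cells miR-375 and miR-7 are very abundant and restrain insulin release or growth signalling, and miR-132 and miR-212 are known to respond to cAMP and glucose. Cd and Mn are both divalent metals that can enter cells through shared transporters. Cd is known for binding thiols and inducing metallothioneins, whereas Mn is a cofactor of enzymes such as the mitochondrial superoxide dismutase and is toxic in excess.

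The values are reads per 1000000 reads mapped to microRNAs (RPMMM), scaled by the authors. A row is 1 arm of 1 hairpin, and a suffix in its name, such as +1 or -1, is read here as a start shifted by that many bases. Of 1186 rows, 523 had a mean of at least 10 RPMMM over the 12 small RNA libraries and were tested, 279 at the annotated start and 244 with a shifted one. In the Cd and Mn libraries 1 read was estimated at 0.130 to 0.169 RPMMM. That would put the scaled total of a library at about 5905000 to 7713000 reads and 10 RPMMM at about 59.05 to 77.13 reads. Rows of hairpins that share a mature sequence hold nearly the same values, so this total may count some reads more than once. Differences are Cd minus Mn between group means of log2(RPMMM + 1), given with a standard error (SE). They were tested with limma and adjusted over the 523 rows by the Benjamini-Hochberg method, and a row is called at an adjusted p under 0.05.

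Beside the named insulinoma line, the labels carry a tissue entry of liver. The beta cell markers were miR-375, miR-7a, miR-184, miR-204, miR-200a, miR-200b, miR-200c, miR-141, miR-429, miR-183, miR-96 and miR-182. Their rows summed to 335850 to 350426 RPMMM in Cd libraries and 345390 to 356372 RPMMM in Mn libraries. Most of this was miR-7a, at 203831 to 224740 RPMMM in Cd and 211154 to 224395 RPMMM in Mn libraries. Its sum adds rows of different hairpins that share the mature miR-7a-5p sequence. No row held miR-200b, and miR-200a and miR-429 reached at most 3.52 RPMMM. Rows of the hepatocyte markers miR-122, miR-192 and miR-194 summed to 13364 to 15524 RPMMM in Cd libraries and 13056 to 13780 RPMMM in Mn libraries. Nearly all of that sum came from miR-192, at 9930 to 12089 RPMMM in Cd libraries and 9975 to 10373 RPMMM in Mn libraries, and miR-194, at 3264 to 3754 RPMMM in Cd libraries and 2981 to 3400 RPMMM in Mn libraries. The most liver-specific of the 3, miR-122-5p, had 6.45 to 9.34 RPMMM in Cd libraries and 7.21 to 9.53 RPMMM in Mn libraries. The blood markers miR-142, miR-223, miR-451, miR-144, miR-486 and miR-150 summed to 1.69 to 1.95 RPMMM in Cd libraries and 0 to 2.33 RPMMM in Mn libraries. The fibroblast and vessel markers miR-126, miR-143, miR-145, miR-199a and miR-214 summed to 201 to 218 RPMMM in Cd libraries and 183 to 195 RPMMM in Mn libraries. Nearly all of this was miR-126a, at 200 to 216 RPMMM in Cd and 180 to 193 RPMMM in Mn libraries. All 12 small RNA libraries carry the same lane number in their labels.

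The sequences below are the mature microRNAs on which the results turn, from RefSeq (rat build GRCr8), with the seed in capitals. The first set holds the pair from the miR-212 and miR-132 locus, which share a seed and were higher in Cd.
miR-212-3p: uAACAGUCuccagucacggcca
miR-132-3p: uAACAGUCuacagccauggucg

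The second set holds the arms of the miR-195 and miR-497 locus that were lower in Cd, with miR-16-5p, which has the seed of miR-195-5p and miR-497-5p but is encoded elsewhere.
miR-195-3p: cCAAUAUUggcugugcugcucca
miR-195-5p: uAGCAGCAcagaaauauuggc
miR-497-5p: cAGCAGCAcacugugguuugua
miR-16-5p: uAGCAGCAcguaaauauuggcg

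The third set holds single rows that stood out on one side. For miR-490-5p and miR-708-5p the Cd libraries stood apart from the untreated ones. For miR-125b-1-3p, miR-346, miR-344b-1-3p, miR-148a-5p and miR-22-3p it was the Mn libraries.
miR-490-5p: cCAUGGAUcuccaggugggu
miR-708-5p: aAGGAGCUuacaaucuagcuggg
miR-125b-1-3p: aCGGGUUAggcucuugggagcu
miR-346: uGUCUGCCugagugccugccucu
miR-344b-1-3p: gAUAUAACcaaagcccgacugu
miR-148a-5p: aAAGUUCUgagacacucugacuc
miR-22-3p: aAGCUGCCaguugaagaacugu

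The fourth set sets miR-7b, lower in Cd, beside miR-7a-5p, the most abundant microRNA of these cells, which has the same seed.
miR-7b: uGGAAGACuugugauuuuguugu
miR-7a-5p: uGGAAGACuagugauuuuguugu

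Cd and Mn libraries differed in few microRNAs and by modest amounts. Of the 523 rows, 39 were called (7.46%), 19 higher in Cd (3.63% of the rows) and 20 lower (3.82%). The differences ran from -0.94 for miR-195-3p to 0.88 for miR-490-5p, and 6 calls passed 1.5-fold, 2 higher and 4 lower. The 39 rows cover 33 arms of 30 microRNAs, and 9 of them are forms with a shifted start. Both arms of miR-212 and of miR-195 were called, and miR-218a-5p counts as 2 rows and 2 arms although its hairpins share the mature sequence. The 3 Cd and 3 Mn values overlapped in 0 of the 39, and did not overlap in 129 of all 523 rows (24.7%). In such bulk libraries, fewer cells that hold a microRNA and less of it per cell cannot be told apart.

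Most of the microRNA pool was close between the metals. The median size of a difference was 0.11, 73.0% of rows lay within 0.2 of 0, and the 95% interval of 445 rows (85.1%) lay within 1.5-fold either way. Of 75 rows with a mean of 1000 RPMMM or more, 2 were called, miR-22-3p and miR-132-3p. By contrast 18 of the 39 calls had a mean under 50 RPMMM over the Cd and Mn libraries.

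**Figure D1:**
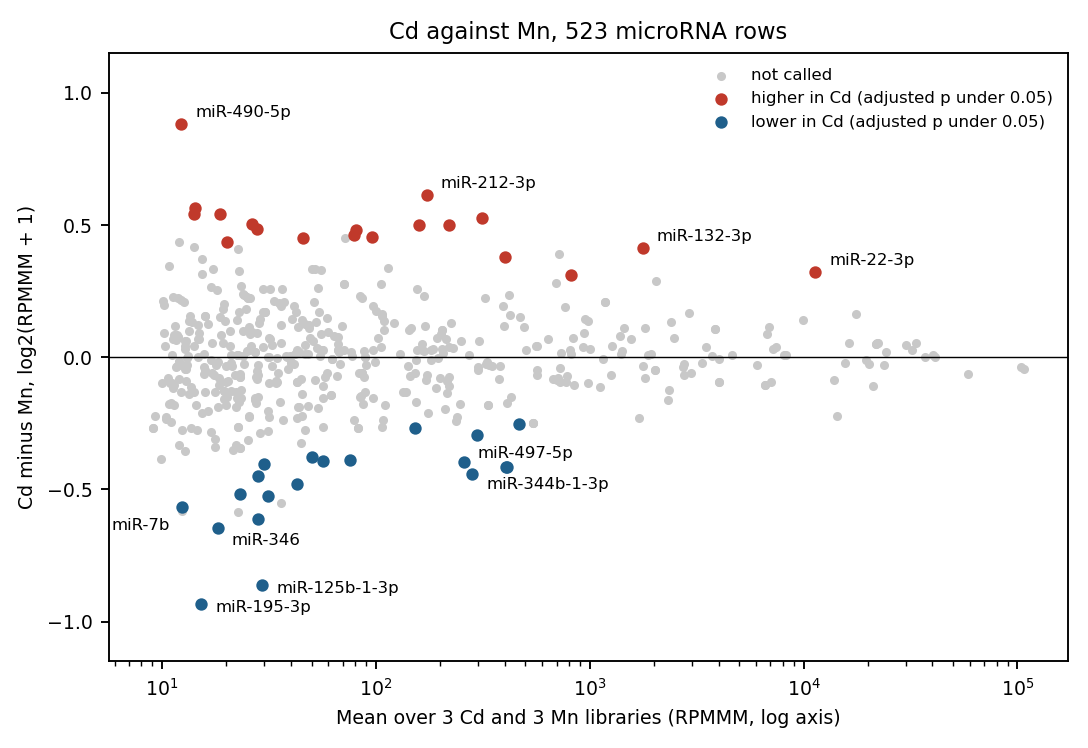
Difference between Cd and Mn (vertical axis, log2 of RPMMM + 1) against the mean over the 3 Cd and 3 Mn libraries (horizontal log axis, RPMMM) for the 523 rows; coloured points are the 19 rows higher and the 20 rows lower in Cd. The named points include miR-195-3p at -0.94 and miR-490-5p at 0.88, and miR-132-3p and miR-22-3p are the called rows at 1000 RPMMM or more.

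The number of calls depended on single libraries. It was 4 without Mn replicate 1, 8 without Cd replicate 3, 16 without Cd replicate 1, 16 without Mn replicate 3, 20 without Mn replicate 2 and 28 without Cd replicate 2. The rows called with each of these 6 libraries left out in turn were miR-195-3p, miR-212-3p, miR-125b-1-3p and miR-344b-1-3p, and 7 of the 39 were lost in all 6 cases. Leaving a library out leaves 2 in its group. Quantile normalization, which sets the distribution of every library equal, ended the calls on miR-132-3p, miR-22-3p, miR-27b-5p, miR-30e-3p, miR-7b, miR-449a-5p, miR-455-3p and the +1 form of miR-140-3p.

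The miR-212 and miR-132 locus gave 5 of the 19 rows higher in Cd. Both microRNAs lie on the plus strand of chromosome 10, miR-212-3p at chr10:60521811-60521832 and miR-132-3p at chr10:60522091-60522112 (GRCr8), with 280 bases between their starts, and they are made from a shared transcript. Of the 7 rows of the pair, 5 were called higher in Cd and 0 lower, with a median difference of 0.48. Over all rows 3.63% were called higher and 3.82% lower, and the median was 0.0022. As background, the 3p arms repress targets that include the GTPase-activating protein p250GAP in neurons, and overexpressing them in beta cell lines has been reported to raise insulin secretion.

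miR-212-3p had 219, 198 and 211 RPMMM in Cd libraries, 135, 146 and 129 RPMMM in Mn libraries and 136, 138 and 168 RPMMM in untreated ones. Every Cd value was above every Mn and untreated value. The difference was 0.62 (SE 0.09, limma adjusted p = 0.00225), and the highest adjusted p with a Cd or Mn library left out was 0.0196. Against untreated cells, which both metals share as baseline, the difference was 0.51 for Cd (adjusted p = 0.0154) and -0.11 for Mn (adjusted p = 0.451).

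miR-132-3p, the abundant member, had 2207, 1846 and 2008 RPMMM in Cd libraries, 1528, 1515 and 1493 RPMMM in Mn libraries and 1458, 1545 and 1900 RPMMM in untreated ones. The Cd and Mn values did not overlap, whereas 1 untreated library lay among the Cd values. Against untreated cells the difference was 0.31 for Cd (limma adjusted p = 0.0570) and -0.10 for Mn (limma adjusted p = 0.524), neither of them called. Between Cd and Mn it was 0.41 (SE 0.10, limma adjusted p = 0.0218). The call was lost without Cd replicate 1 (0.0831), Cd replicate 3 (0.0809), Mn replicate 1 (0.0644), Mn replicate 2 (0.0599) or Mn replicate 3 (0.0856), and after quantile normalization. Its form with a start of +1 had 94.0, 88.7 and 101 RPMMM in Cd libraries and 66.04, 67.9 and 68.2 RPMMM in Mn libraries, a difference of 0.48 (limma adjusted p = 0.0146), lost without Cd replicate 3 (0.0746) or Mn replicate 1 (0.0595). Against untreated cells this form differed by 0.31 for Cd (limma adjusted p = 0.0669) and -0.18 for Mn (limma adjusted p = 0.281).

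The 5p arms of the locus lie lower in abundance. miR-212-5p had 15.9, 17.4 and 17.2 RPMMM in Cd libraries and 9.65, 12.5 and 11.8 RPMMM in Mn libraries, a difference of 0.54 (SE 0.13, limma adjusted p = 0.0276), and its +1 form gave 0.54 (limma adjusted p = 0.0158). Untreated libraries had a mean of 14.0 RPMMM for miR-212-5p, between Cd and Mn. For the +1 form the mean was 22.4 RPMMM in Cd, 15.1 RPMMM in Mn and 20.1 RPMMM in untreated libraries. The miR-212-5p call was lost in 5 of the 6 cases with a library left out (up to 0.116 without Mn replicate 1), and the call on its +1 form without Cd replicate 3 (0.0707), Mn replicate 1 (0.0595) or Mn replicate 3 (0.0633). miR-132-5p had 121, 116 and 110 RPMMM in Cd libraries and 91.7, 100 and 94.0 RPMMM in Mn libraries. Those values do not overlap either, but the difference of 0.28 (95% interval 0.07 to 0.48) missed the threshold (limma adjusted p = 0.107).

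The miR-195 and miR-497 locus lay lower in Cd on all 3 of its tested arms. It is also on the plus strand of chromosome 10, with miR-497-5p 337 bases before miR-195-5p (chr10:55450509-55450529, GRCr8). Its 5p arms belong to the miR-15/16 family, known for repressing cyclins and Bcl2, and miR-195-3p is the opposite arm with a seed of its own.

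miR-195-3p had 12.2, 9.07 and 9.30 RPMMM in Cd libraries, 20.1, 20.3 and 20.2 RPMMM in Mn libraries and 20.2, 16.6 and 19.6 RPMMM in untreated ones. The Cd libraries lay well below both other groups. The difference was -0.94 (SE 0.12, 95% interval -1.20 to -0.67, limma adjusted p = 0.00167), the largest fall of the 523 rows, and it was called with each Cd or Mn library left out. Against untreated cells it was -0.83 for Cd (adjusted p = 0.00573) and 0.10 for Mn (adjusted p = 0.622).

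miR-195-5p had 49.0, 53.3 and 44.3 RPMMM in Cd libraries, 59.3, 70.1 and 63.6 RPMMM in Mn libraries and 67.6, 64.3 and 68.8 RPMMM in untreated ones, a difference between Cd and Mn of -0.39 (SE 0.10, limma adjusted p = 0.0297). miR-497-5p had 230, 222 and 213 RPMMM in Cd libraries, 277, 323 and 280 RPMMM in Mn libraries and 361, 294 and 300 RPMMM in untreated ones, a difference of -0.40 (SE 0.10, limma adjusted p = 0.0285). In both rows each Cd value was below each Mn and untreated value. These calls are less firm than that of miR-195-3p. The miR-497-5p call was lost in all 6 cases with a Cd or Mn library left out (0.0595 to 0.120), and that of miR-195-5p in each but the case without Cd replicate 2 (0.0595 to 0.163 where lost).

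The seed of miR-195-5p and miR-497-5p, AGCAGCA, is carried by 5 tested rows at the annotated start, of which these 2 were called lower. miR-16-5p, by far the most abundant of the 5, had 15256, 16384 and 14992 RPMMM in Cd libraries and 15515, 16261 and 15507 RPMMM in Mn libraries, a difference of -0.02 (95% interval -0.13 to 0.09). miR-15b-5p differed by -0.17 (95% interval -0.37 to 0.02) and miR-322-1-5p by -0.01 (95% interval -0.25 to 0.23). The 16 rows of the miR-15, miR-16, miR-195 and miR-497 family had a median of -0.01. Of these, 0 were called higher and 4 lower, against 3.63% and 3.82% of all rows. The fourth is the +1 form of miR-16-3p, which had 39.0, 36.0 and 30.9 RPMMM in Cd libraries and 41.6, 61.01 and 47.6 RPMMM in Mn libraries (difference -0.48, limma adjusted p = 0.0460). That call was lost in all 6 cases with a library left out (0.0501 to 0.218), and in the fit of the 6 Cd and Mn libraries alone (0.0588).

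**Figure D2:**
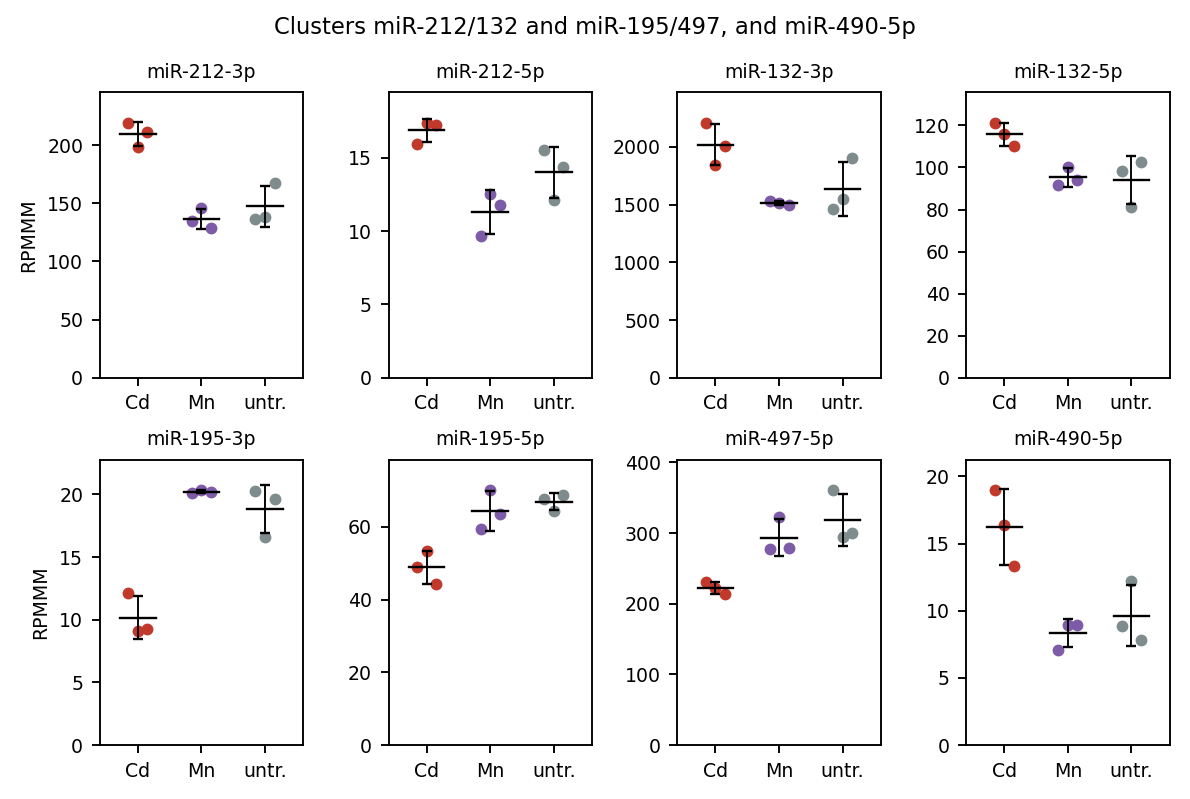
Level in RPMMM (vertical axes from 0) of the tested arms of the miR-212 and miR-132 and miR-195 and miR-497 loci and of miR-490-5p, in 3 Cd, 3 Mn and 3 untreated (untr.) libraries; points are libraries, long bars the mean and whiskers the SD. Cd libraries lie above Mn libraries in the miR-212 and miR-132 arms and miR-490-5p, and below them in the miR-195 and miR-497 arms.

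Other rows set Cd apart from both Mn and untreated cells. miR-490-5p, whose hairpin lies within the span of the muscarinic receptor gene Chrm2 on chromosome 4, had 19.0, 16.4 and 13.3 RPMMM in Cd libraries, 7.11, 8.93 and 8.91 RPMMM in Mn libraries and 8.86, 12.2 and 7.85 RPMMM in untreated ones. Its difference of 0.88 (SE 0.19, limma adjusted p = 0.0146) was the largest rise of the 523 rows, and that of Cd from untreated cells was 0.71 (adjusted p = 0.0334). The call was lost without Cd replicate 1 (0.0595) or Mn replicate 1 (0.0623). The row passed the filter of 10 RPMMM only through the Cd libraries, with a mean of 11.4 RPMMM over the 12 libraries. Group means were 16.2 RPMMM in Cd, 8.32 RPMMM in Mn and 9.63 RPMMM in untreated libraries, so its place among the tested rows rests on its level in Cd.

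miR-708-5p, encoded within the span of Tenm4 on chromosome 1 and known in mouse cells as a microRNA induced by the endoplasmic reticulum stress factor CHOP, was lower in Cd. It had 63.6, 65.3 and 66.5 RPMMM in Cd libraries, 97.1, 82.1 and 78.3 RPMMM in Mn libraries and 86.9, 79.8 and 84.7 RPMMM in untreated ones, and the Cd values lay below all the others. The difference was -0.39 (SE 0.09, limma adjusted p = 0.0195), and that of Cd from untreated cells was -0.36 (adjusted p = 0.0286). The call was lost without Cd replicate 1 (0.0630), Cd replicate 3 (0.0725) or Mn replicate 1 (0.0742).

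miR-218a-5p, made from hairpins on chromosomes 10 and 14, was also lower in Cd. Its rows for the 2 hairpins hold nearly the same values because the mature sequence is identical, so they are 1 measurement. The row of miR-218a-1-5p had 345, 364 and 342 RPMMM in Cd libraries, 476, 497.39 and 431 RPMMM in Mn libraries and 477, 446 and 433 RPMMM in untreated ones (difference -0.42, SE 0.09, limma adjusted p = 0.0146). The call was lost without Cd replicate 1 (0.0523), Cd replicate 3 (0.0725), Mn replicate 1 (0.0595) or Mn replicate 2 (0.0562).

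In a second group of rows the Mn libraries stood away from untreated cells and the Cd libraries lay closer to them. Which metal accounts for a difference between Cd and Mn was not tested. miR-125b-1-3p, the opposite arm of the developmental microRNA miR-125b, had 24.8, 18.5 and 18.4 RPMMM in Cd libraries, 33.8, 40.5 and 39.8 RPMMM in Mn libraries and 18.3, 25.6 and 20.6 RPMMM in untreated ones. All 3 Mn values lay above the rest, and Cd and untreated values overlapped. The difference was -0.86 (SE 0.15, limma adjusted p = 0.00633), called with each Cd or Mn library left out (at most 0.0406). Against untreated cells it was -0.06 for Cd (adjusted p = 0.827) and 0.80 for Mn (adjusted p = 0.0106).

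miR-344b-1-3p, from a microRNA family annotated in rodents, had 243, 227 and 247 RPMMM in Cd libraries, 305, 348 and 324 RPMMM in Mn libraries and 267, 243 and 250 RPMMM in untreated ones. The Mn values lay above all the others. The difference was -0.44 (SE 0.07, limma adjusted p = 0.00633), called with each Cd or Mn library left out (at most 0.0298), and that of Mn from untreated cells was 0.36 (adjusted p = 0.0150).

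miR-346, within the span of the glutamate receptor gene Grid1 on chromosome 16, was present in 2 called forms. At the annotated start it had 14.0, 14.97 and 12.9 RPMMM in Cd libraries, 21.4, 24.6 and 21.3 RPMMM in Mn libraries and 13.3, 12.7 and 16.2 RPMMM in untreated ones (difference -0.65, SE 0.13, limma adjusted p = 0.0137). Its -1 form had 22.4, 19.8 and 23.7 RPMMM in Cd libraries and 33.0, 31.2 and 38.3 RPMMM in Mn libraries (difference -0.61, limma adjusted p = 0.0146). In both forms the Mn values lay above all Cd and untreated values. The call on the annotated start was lost without Cd replicate 3 (0.0707) or Mn replicate 1 (0.0501), and that on the -1 form without Mn replicate 1 (0.0572) or Mn replicate 3 (0.0633).

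miR-7b had 9.16, 11.5 and 8.85 RPMMM in Cd libraries, 16.0, 14.2 and 14.8 RPMMM in Mn libraries and 9.02, 12.5 and 8.76 RPMMM in untreated ones. It has the seed of miR-7a-5p, GGAAGAC, but its share of that seed's reads is tiny. The difference was -0.57 (SE 0.15, limma adjusted p = 0.0341), and the call was lost in each case with a Cd or Mn library left out except Cd replicate 2 (up to 0.170 without Cd replicate 3), and after quantile normalization. miR-7a-1-5p had 103908, 111792 and 101325 RPMMM in Cd libraries and 110028, 105153 and 111831 RPMMM in Mn libraries, which overlap (difference -0.05, 95% interval -0.17 to 0.08). The sequences of miR-7b and miR-7a-5p differ at a single base. Whether misread miR-7a reads were counted in the miR-7b row was not tested.

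miR-382-5p, from the imprinted Dlk1-Dio3 cluster on chromosome 6, and miR-27b-5p, the opposite arm of the abundant miR-27b-3p, complete this side. miR-382-5p had 22.1, 25.0 and 23.6 RPMMM in Cd libraries and 34.9, 28.03 and 35.2 RPMMM in Mn libraries (difference -0.45, limma adjusted p = 0.0276), and miR-27b-5p had 260, 270 and 271 RPMMM in Cd libraries and 328, 328 and 326 RPMMM in Mn libraries (difference -0.29, limma adjusted p = 0.0187). Both were higher in Mn than in untreated cells, by 0.50 (adjusted p = 0.0234) and 0.26 (adjusted p = 0.0376). Of the 6 cases with a Cd or Mn library left out, miR-382-5p was called in 2 and miR-27b-5p in 1. The adjusted p reached 0.104 for miR-382-5p without Mn replicate 3 and 0.0725 for miR-27b-5p without Cd replicate 3.

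On the opposite side, several rows were higher in Cd with the Cd libraries near untreated cells and the Mn libraries below them. miR-148a-5p, the opposite arm of an abundant microRNA known for repressing the DNA methyltransferase Dnmt1 and the LDL receptor, had 234, 261 and 280 RPMMM in Cd libraries, 174, 189 and 183 RPMMM in Mn libraries and 283, 244 and 243 RPMMM in untreated ones. Each Mn value was below every other. The difference was 0.50 (SE 0.09, limma adjusted p = 0.00633), and Mn differed from untreated cells by -0.49 (adjusted p = 0.00915). The call was lost without Mn replicate 1 (0.0501). The 3p arm, at a mean of 18683 RPMMM in Cd libraries and 16650 RPMMM in Mn libraries, differed by 0.16 (limma adjusted p = 0.253).

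miR-22-3p is the most abundant called row. It had 12242, 13028 and 12480 RPMMM in Cd libraries, 9704, 10645 and 9872 RPMMM in Mn libraries and 13311, 11299 and 11697 RPMMM in untreated ones, and again the Mn values lay below all the others. The difference was 0.32 (SE 0.06, limma adjusted p = 0.0133), and Mn differed from untreated cells by -0.26 (adjusted p = 0.0296). The call was lost without Cd replicate 3 (0.0504) or Mn replicate 1 (0.0595). After quantile normalization the difference was 0.07 (limma adjusted p = 0.691).

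miR-339-5p had 422, 343 and 353 RPMMM in Cd libraries, 254, 281 and 237 RPMMM in Mn libraries and 334, 313 and 348 RPMMM in untreated ones (difference 0.53, SE 0.10, limma adjusted p = 0.0105), and its call was lost without Mn replicate 1 (0.0501). The -1 form of miR-582-3p, within the span of the phosphodiesterase gene Pde4d on chromosome 2, had 179, 180 and 197 RPMMM in Cd libraries, 116, 134 and 144 RPMMM in Mn libraries and 232, 204 and 203 RPMMM in untreated ones (difference 0.50, SE 0.09, limma adjusted p = 0.0105). Its Mn values were the lowest and its untreated values the highest, with Cd between them. Mn differed from untreated cells by -0.70 (adjusted p = 0.00226) and Cd by -0.20 (adjusted p = 0.181), and the call was lost without Cd replicate 3 (0.0578) or Mn replicate 1 (0.0501). The annotated start of miR-582-3p, at 108, 127 and 149 RPMMM in Cd libraries and 96.6, 97.2 and 107 RPMMM in Mn libraries, did not overlap but missed the threshold (difference 0.34, limma adjusted p = 0.0821).

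miR-188-5p, within the span of the chloride transporter gene Clcn5 on the X chromosome, had 54.3, 52.5 and 52.2 RPMMM in Cd libraries and 35.2, 44.8 and 36.1 RPMMM in Mn libraries (difference 0.45, limma adjusted p = 0.0218). miR-140-3p, within the span of Wwp2 on chromosome 19 and known for its part in mouse cartilage, had 453, 434 and 474 RPMMM in Cd libraries and 325, 345 and 377 RPMMM in Mn libraries (difference 0.38, limma adjusted p = 0.0187). Its +1 form differed by 0.31 (limma adjusted p = 0.0321). Mn lay below untreated cells in these 3 rows, by -0.54 for miR-188-5p (adjusted p = 0.0127), -0.33 for miR-140-3p (adjusted p = 0.0391) and -0.30 for its +1 form (adjusted p = 0.0441). The calls on miR-188-5p and miR-140-3p were kept in 1 and 2 of the 6 cases with a Cd or Mn library left out and that on the +1 form in 0. The adjusted p reached 0.0901 for miR-188-5p without Mn replicate 1, 0.0874 for miR-140-3p without Cd replicate 3 and 0.165 for the +1 form without Mn replicate 1.

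**Figure D3:**
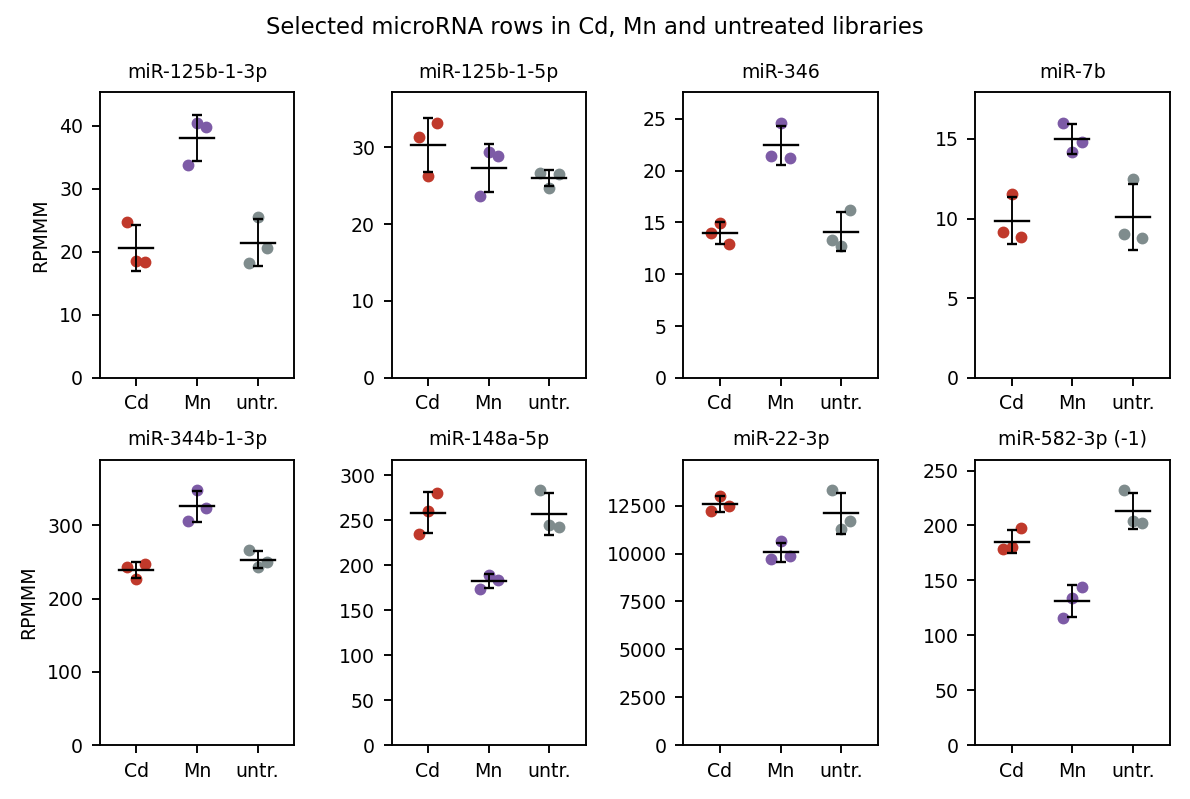
Level in RPMMM (vertical axes from 0) of 8 rows in 3 Cd, 3 Mn and 3 untreated (untr.) libraries; points are libraries, long bars the mean and whiskers the SD. Mn libraries lie above Cd libraries in miR-125b-1-3p, miR-346, miR-7b and miR-344b-1-3p and below them in miR-148a-5p, miR-22-3p and the -1 form of miR-582-3p, and overlap with them in miR-125b-1-5p.

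The remaining calls lay between these patterns, with Cd and Mn on either side of untreated cells. Among rows higher in Cd, miR-383-5p had 35.5, 30.6 and 31.4 RPMMM in Cd libraries and 19.5, 24.6 and 25.0 RPMMM in Mn libraries (difference 0.48, limma adjusted p = 0.0285), and its +1 form differed by 0.56 (limma adjusted p = 0.0204). miR-449a-5p, which has the seed GGCAGUG of the p53-responsive miR-34 family, had 31.4, 32.4 and 29.4 RPMMM in Cd libraries and 23.0, 21.9 and 20.02 RPMMM in Mn libraries (difference 0.50, limma adjusted p = 0.0460). The miR-34 rows with that seed were not called, at 0.07 for miR-34a-5p, -0.04 for miR-34b-5p and 0.07 for miR-34c-5p.

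miR-455-3p, within the span of the collagen gene Col27a1 on chromosome 5, differed by 0.46 (limma adjusted p = 0.0486) and its -2 form by 0.45 (limma adjusted p = 0.0276). miR-192-3p differed by 0.43 (limma adjusted p = 0.0285). Calls on these 6 rows were kept in at most 2 of the 6 cases with a Cd or Mn library left out, and those of miR-449a-5p and miR-192-3p in 0. Without Cd replicate 3 the adjusted p was 0.0844 for miR-383-5p, 0.104 for its +1 form, 0.104 for miR-449a-5p, 0.157 for miR-455-3p, 0.113 for its -2 form and 0.0809 for miR-192-3p.

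Among rows lower in Cd, the miR-30 family had 3 calls, all on 3p arms. miR-30e-3p had 423, 439 and 420 RPMMM in Cd libraries and 520, 509 and 499 RPMMM in Mn libraries (difference -0.25, SE 0.05, limma adjusted p = 0.0158). miR-30a-3p differed by -0.27 (limma adjusted p = 0.0321) and miR-30c-1-3p by -0.38 (limma adjusted p = 0.0285). The 3p arms of miR-30d and miR-30c-2 were not called, at -0.26 (limma adjusted p = 0.145) and -0.17 (limma adjusted p = 0.377). The 5p arms of the 5 hairpins were not called either and lay between -0.05 for miR-30c-1-5p and 0.03 for miR-30d-5p. The ratio of the arms itself was not called in any of these hairpins (limma adjusted p of 0.290 for miR-30c-1, miR-30d and miR-30e, 0.445 for miR-30a and 0.819 for miR-30c-2, adjusted over 81 hairpins). Of the family's 21 rows, 0 were called higher and 3 lower, with a median of -0.13. Over all rows 3.63% were called higher and 3.82% lower. Without Cd replicate 3 the adjusted p was 0.0804 for miR-30e-3p, 0.128 for miR-30a-3p and 0.0804 for miR-30c-1-3p, and without Mn replicate 1 it was 0.0623 for miR-30e-3p and 0.118 for both others. In the fit of the 6 Cd and Mn libraries alone it was 0.0718 for miR-30a-3p and 0.0617 for miR-30c-1-3p.

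miR-374-3p from the X chromosome, within the spans of the noncoding genes Jpx and Ftx, had 26.2, 24.1 and 26.2 RPMMM in Cd libraries and 34.7, 38.9 and 37.9 RPMMM in Mn libraries (difference -0.52, limma adjusted p = 0.0285). The -1 form of miR-93-5p, within the span of the replication gene Mcm7 on chromosome 12, had 19.6, 17.4 and 19.8 RPMMM in Cd libraries and 27.6, 26.8 and 28.1 RPMMM in Mn libraries (difference -0.52, limma adjusted p = 0.0158). Its annotated start, at 13744, 13367 and 12453 RPMMM in Cd libraries and 15716, 15300 and 15052 RPMMM in Mn libraries, also did not overlap but missed the threshold (difference -0.22, limma adjusted p = 0.107, and 0.0305 in the fit of the 6 Cd and Mn libraries alone). miR-505-3p differed by -0.40 (limma adjusted p = 0.0331). Without Cd replicate 3 the adjusted p was 0.0874 for miR-374-3p, 0.0601 for the -1 form of miR-93-5p and 0.170 for miR-505-3p.

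**Figure D4:**
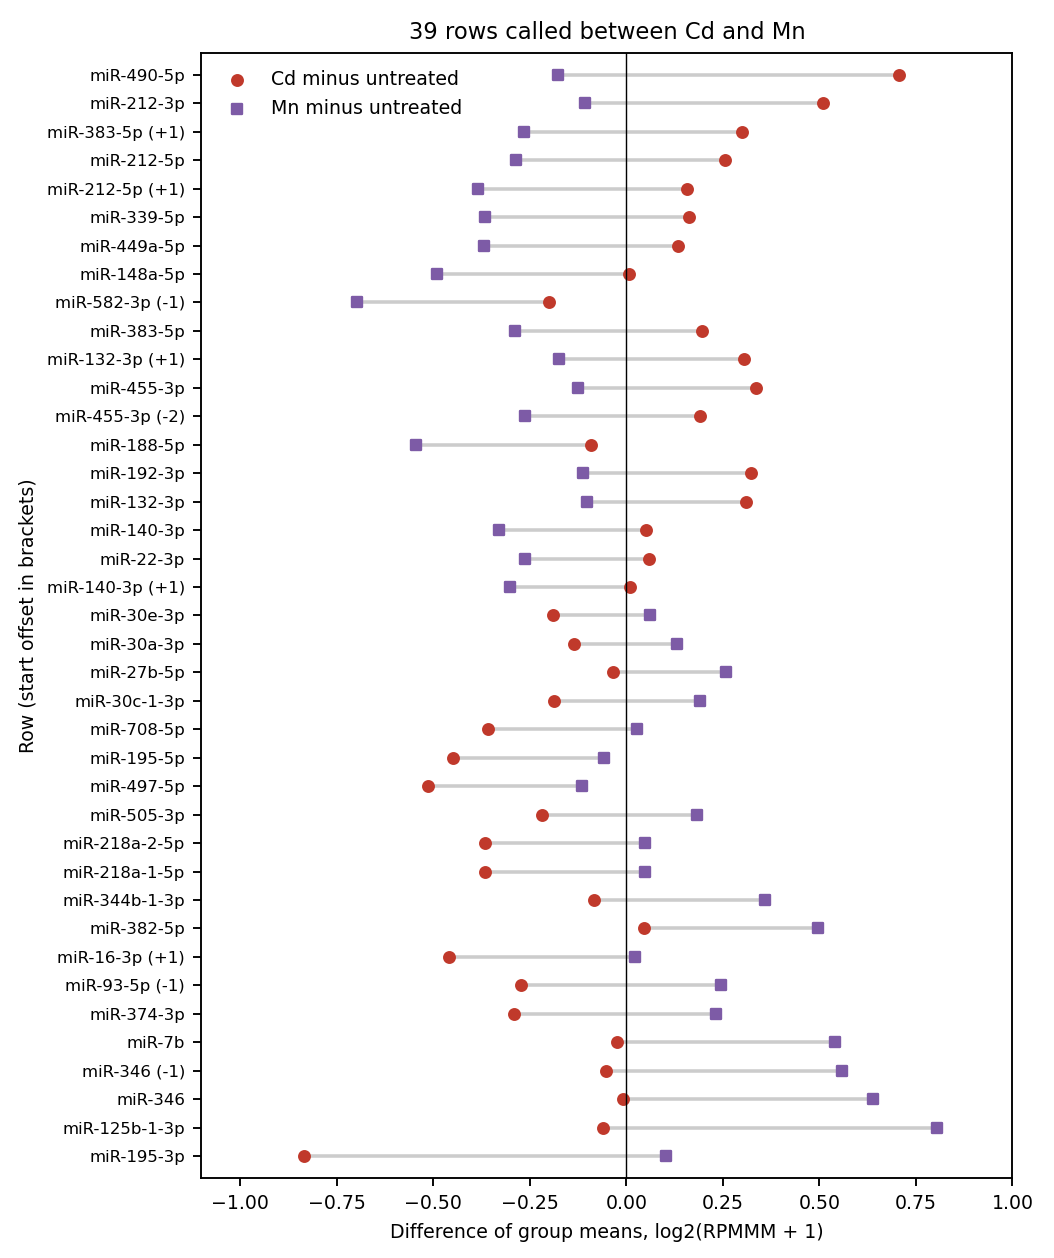
Difference of Cd from untreated (circles) and of Mn from untreated (squares) in log2(RPMMM + 1) for the 39 rows called between Cd and Mn, ordered by the Cd minus Mn difference, with start offsets in brackets. The pairs of points share the untreated libraries. The Cd point of miR-195-3p lies at -0.83 and the Mn point of miR-125b-1-3p at 0.80.

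Over all rows, Cd against untreated cells gave 55 calls (10.5%), of which 3.63% of rows were higher and 6.88% lower. Mn against untreated cells gave 39 (7.46%), with 2.49% of rows higher and 4.97% lower. Both comparisons use the same untreated libraries, so the values above are given side by side only.

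The ratio of the 3p to the 5p arm was tested for the 81 hairpins with both arms at the annotated start, an analysis added after the row values were seen. The ratio differed in 2 hairpins (limma, adjusted over the 81), and 12 had an unadjusted p under 0.05. For miR-125b-1 the log2 ratio was -0.33, -0.48 and -0.82 in Cd libraries and 0.49, 0.45 and 0.45 in Mn libraries, so the 5p row was the higher in each Cd library and the 3p row in each Mn library. The difference was -1.01 (SE 0.17, limma adjusted p = 0.00388), and it was called with each Cd or Mn library left out (at most 0.0345). The 5p row itself differed by 0.14 (95% interval -0.11 to 0.40), and it shares its mature sequence with miR-125b-2, so its reads cannot be assigned to 1 hairpin.

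For miR-195 the log2 ratio was -1.92, -2.43 and -2.14 in Cd libraries and -1.51, -1.74 and -1.61 in Mn libraries, a difference of -0.54 (SE 0.13, limma adjusted p = 0.0421). It was lost in each case with a Cd or Mn library left out except Cd replicate 1 (up to 0.244).

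Groups of microRNAs known for beta cells, stress or other tissues were described by counts, with the background at 3.63% higher and 3.82% lower. Of 89 rows of the beta cell list, 6 were called higher in Cd and 1 lower, with a median of 0.01. The 6 are the 5 miR-132 and miR-212 rows and miR-148a-5p, and the 1 is miR-7b. Of 65 rows of the list of oxidant, hypoxia and inflammation responsive microRNAs, 5 were called higher, again the miR-132 and miR-212 rows, and 3 lower, miR-125b-1-3p, miR-27b-5p and the -1 form of miR-93-5p, with a median of 0.02. The liver list had 2 rows of 20 higher, miR-148a-5p and miR-192-3p, 0 lower and a median of 0.14. The clusters of miR-17, miR-18, miR-19 and miR-92 had 0 of 30 rows higher and 1 lower, with a median of -0.11. The list of the Dlk1-Dio3 cluster had 0 of 10 higher and 1 lower, with a median of -0.17. It includes miR-342, which lies at chr6:133329673-133329694, far from miR-382-5p at chr6:134569956-134569977 (GRCr8). These numbers may thus not be those of the cluster alone.

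The remaining lists had no call by limma. In the let-7 family, 0 of 75 rows were called and 3 had an unadjusted p under 0.05, with a median of 0.00011. The miR-29 family, known in beta cells for repressing the monocarboxylate transporter Mct1, had 0 of 16 rows called, 4 with an unadjusted p under 0.05, 14 above 0 and a median of 0.22. Its most abundant row, miR-29a-3p, had 2270, 2319 and 2165 RPMMM in Cd libraries and 1787, 2070 and 1695 RPMMM in Mn libraries, which do not overlap (difference 0.29, 95% interval 0.07 to 0.50, limma adjusted p = 0.107). In the fit of the 6 Cd and Mn libraries alone its adjusted p was 0.0338, and after median-of-ratios rescaling 0.0488. The numbers with an unadjusted p under 0.05 were 1 of 10 rows in the miR-200 and miR-141 family, 0 of 10 in the miR-183, miR-96 and miR-182 cluster, 0 of 11 in the miR-101 and miR-26 families, 0 of 2 in the muscle list and 1 of 3 in the fibroblast and vessel list. No row of the blood and immune list passed the filter.

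**Figure D5:**
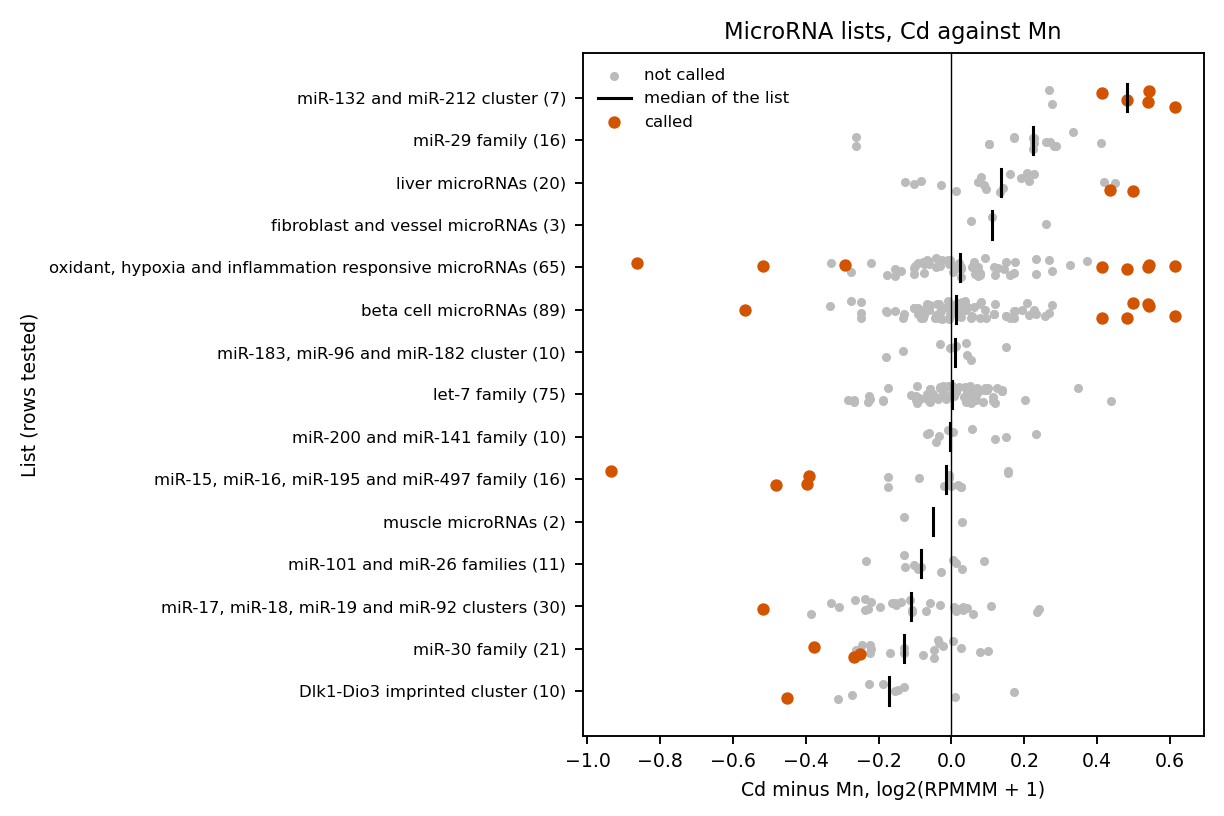
Difference between Cd and Mn in log2(RPMMM + 1) for each tested row (points) of 15 lists of microRNAs, with the number of rows in brackets; vertical bars are the medians and orange points the called rows. The median of the miR-132 and miR-212 cluster lies at 0.48, that of the let-7 family at 0.

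The beta cell markers miR-375-3p, miR-184 and miR-204-5p were not called between the metals. miR-375-3p, which restrains insulin release through myotrophin, had 60884, 54064 and 57754 RPMMM in Cd libraries and 57366, 61969 and 61140 RPMMM in Mn libraries, which overlap (difference -0.06, 95% interval -0.20 to 0.08). miR-184, a repressor of Argonaute 2, had 51.2, 49.5 and 54.6 RPMMM in Cd libraries and 45.7, 50.7 and 52.2 RPMMM in Mn libraries (difference 0.06, 95% interval -0.16 to 0.29). miR-204-5p, which represses the insulin gene activator MafA, had 406, 399 and 449 RPMMM in Cd libraries and 343, 388 and 364 RPMMM in Mn libraries. Those values do not overlap, but the difference of 0.19 (95% interval 0.04 to 0.35) missed the threshold (limma adjusted p = 0.139).

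Of the oxidant, hypoxia and inflammation list, whose 8 called rows are given above, miR-146a-5p, miR-210-3p, miR-21-5p and miR-34a-5p did not pass the threshold. miR-146a-5p, induced by NF-κB, had 15.6, 18.9 and 17.9 RPMMM in Cd libraries and 12.4, 12.7 and 14.8 RPMMM in Mn libraries, which do not overlap (difference 0.37, 95% interval 0.12 to 0.62, limma adjusted p = 0.0818, and 0.0489 without the trend). miR-210-3p, induced by hypoxia, had 471, 447 and 424 RPMMM in Cd libraries, 412, 385 and 403 RPMMM in Mn libraries and 654, 585 and 501 RPMMM in untreated ones. Its difference was 0.16 (95% interval -0.12 to 0.44, limma adjusted p = 0.566), and both metals lay below every untreated value. miR-21-5p had 3716, 4491 and 3861 RPMMM in Cd libraries and 4019, 4123 and 3948 RPMMM in Mn libraries (difference -0.01, 95% interval -0.26 to 0.24). The p53-responsive miR-34a-5p, at 11.7, 11.4 and 12.6 RPMMM in Cd libraries and 12.2, 11.3 and 10.6 RPMMM in Mn libraries, differed by 0.07 (95% interval -0.24 to 0.37).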

How the data were processed

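Total RNA of INS-1 832/13 cells was isolated with a Norgen kit and made into small RNA libraries with a TriLink CleanTag kit, per the labels' protocols. The authors deposited reads per 1000000 mapped to microRNAs (RPMMM, a form of RPM), which sum to 1000000 in each library. The submitters' processing notes name build rn6, STAR, Salmon and DESeq2 without versions or roles, and the settings are not given in the sources used here. The lowest value above 0 in a Cd or Mn library was worth about 10 reads by the estimate above. Between 36.5% and 47.5% of distinct low values were whole multiples of 1 read within 0.0075 RPMMM; whole reads could thus not be recovered and no count test was run. Scaling to the microRNA total makes each value a share: a change in 1 abundant row moves the others.

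Groups came from the treatment in the labels. Rows averaging 10 RPMMM or more were fitted with limma 3.58.1 (trend) in R 4.3.3 on log2(RPMMM + 1), which understates changes of low rows. The 12 small RNA libraries shared 1 fit with 4 group means. Tests are two-sided, and Benjamini-Hochberg adjustment covers all 523 rows. The fit was tested on simulated data. Groups are too small for a permutation test to reach 0.05.

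Text names the 10 largest rises and falls among calls, the most abundant rows, the 2 rows with the smallest p per list and a fixed set. The other called rows, and hairpin partners and seed relatives of calls, were named after their values were seen. The rows, 16 lists and tests were chosen with earlier results of these data known. List counts are of rows, and 36 tested rows duplicate another row's values. Names of 485 tested rows matched a RefSeq mature microRNA, 36 of the 39 called rows among them. Locations and gene spans come from the GRCr8 table, and strand of the spanning gene was not used. miR-155-5p was not analysed here. Alternatives covered the libraries in the fit, a replicate block, pseudocounts, filters, scaling, the trend, repeated rows, shifted starts and each library left out.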

Additional observations from a re-analysis of the deposited data

How the results depend on the processing

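The number of rows called between Cd and Mn was 39 and kept within 1.5 times of that in the fit of the 6 Cd and Mn libraries alone (45), with pseudocounts of 0.1 (39) and 5 (39), without a filter (28), after median-of-ratios rescaling (43) or quantile normalization (34), without the trend (38), with repeated rows taken once (40), at annotated starts only (36) and with the forms of an arm summed (36, an alternative chosen after seeing the data). With the filter at a mean of 50 RPMMM it was 25 of 260 rows, a smaller table in which 20 of the 39 calls could be tested and all 20 were kept. Without a filter, with 1186 rows to adjust over, 23 of the 39 calls were kept; the 16 lost are miR-7b, miR-16-3p (+1), miR-30a-3p, miR-30c-1-3p, miR-192-3p, miR-195-5p, miR-212-5p, miR-374-3p, miR-382-5p, miR-383-5p, miR-449a-5p, miR-455-3p and its -2 form, miR-497-5p, miR-505-3p and miR-140-3p (+1). Leaving out 1 library at a time gave 4 to 48 calls, 4 to 28 where the library was a Cd or Mn one. Hairpins whose arm ratio differed numbered 1 to 2 in the same way.

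With the replicate number as a block, 31 rows were called in the fit of 12 libraries and 55 in that of the 6 Cd and Mn libraries. The labels give no pairing. Deviations of same-numbered Cd and Mn libraries correlated at 0.043, 0.18 and 0.13, and pairs with different numbers at -0.17 to 0.089. Each Mn library was closest to the Cd library of its number, whereas Cd replicate 1 was closest to Mn replicate 3 (0.089). Whether same-numbered libraries are paired was not tested. Over the named rows and all the alternatives above, the replicate blocks included, 2068 results kept their side of the threshold, 197 lost the call and 15 gained one. The 2068 include rows not called in the main fit that stayed so, and all 197 losses fall on the 39 called rows. With 1 Cd or Mn library left out, 12 (without Cd replicate 2) to 35 (without Mn replicate 1) of the 39 were lost. Of results called in the main fit or the alternative, 0 turned round. A change of sign between results not called either way was not counted, as in let-7f-2-5p (-0.03 to 0.03). Causes were not tested. Depth limits rows near 10 RPMMM, and 3 libraries a group limit every call.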
